A study of Mus musculus with 18 samples.

Results

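The coagulation and early complement genes of the liver were followed in 18 polyA RNA-seq libraries of mouse liver. The set is a written list of 38 genes of blood clotting, fibrinolysis and the early steps of complement. Where RefSeq lists several transcripts of a gene, the one with the largest average RPKM stands for it. All 38 listed genes were found, of 24040 genes in the table and 10358 genes tested, and none was listed at 0 in any library. The livers came from wild type C57BL/6J mice, in 6 groups of 3 libraries. The groups were LF and HF, each without further treatment, with CR or with Ex, so that no genotype or transgene differed between groups. Treatment began when the mice were 5 weeks old and the liver was sampled at 62 weeks. The labels give only these short names. LF and HF are taken to stand for diets low and high in fat, CR for restricted calories and Ex for exercise, as is usual for such designs. Neither the sex of the mice nor whether a library is 1 animal is stated, so each p-value speaks for the spread among these samples, which may be technical.

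Clotting runs as a cascade in which each protease cleaves the inactive precursor of the next, until thrombin turns fibrinogen into fibrin. Plasmin, made from plasminogen, dissolves the fibrin again, and serpins, which are suicide inhibitors of serine proteases, hold both directions in check. Complement uses the same logic: the C1 proteases or the lectin-associated proteases cleave C4 and C2, the products cleave C3, and regulators such as factor I and the C4b-binding protein stop the reaction. Hepatocytes make most of these plasma proteins, many of which are also acute-phase proteins whose genes respond to interleukin signals.

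The deposited values are RPKM, which divide a transcript's reads by its length and the size of the library, so levels of different genes can be set side by side. Read counts were not used here. The steps between the lowest values gave an estimated depth of 23.4 to 45.2 M reads per library, at which the lowest member value, that of F11, rested on about 620 reads. Libraries of 1 group correlated at r = 0.952 to 0.989 across genes, and libraries of different groups at 0.928 to 0.986. Some libraries stood apart. Prss2, a pancreatic trypsinogen, was at 261 RPKM in LF+CR 1, 35.4 in HF+CR 1 and 5.92 in LF+Ex 1, which are called the pancreas libraries. By the sum of 10 pancreatic markers LF+Ex 1 was at 37.1 RPKM, and HF+CR 2, not set apart, at 38.6 RPKM. In HF+CR 2, 8 of these markers were at 0, Prss2 among them, and in LF+Ex 1 only 1 was. Markers of bile duct cells, 10 genes of which 4 were tested, summed to 150.3 RPKM in LF 2 and 169 RPKM in HF+CR 3, which are called the bile duct libraries, and to 15.7 to 74.9 RPKM in the other 16. Alb, the albumin gene and the first hepatocyte marker, was listed at 0 in 14 libraries and at 30395 to 33218 RPKM in HF 1 and all 3 HF+Ex libraries, while the other 9 of 10 hepatocyte markers were above 0 in every library. An exact 0 in these RPKM values can be a failed estimate, so a difference in Alb between groups rests on those listed zeros.

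The levels of the members spanned from 14.3 to 2867 RPKM as means over 18 libraries. Fgb, the beta chain of fibrinogen, was the highest at 2867 RPKM and ranked 23 among all genes. C3, the central complement protein, had a mean of 1745 RPKM, Fgg 1436 RPKM and Vtn, the adhesive protein vitronectin, 1175 RPKM. Above 500 RPKM lay 9 members, with 17 between 100 and 500 RPKM and 12 below 100 RPKM. Pros1, the anticoagulant cofactor protein S, was the lowest at 14.3 RPKM, below Masp1, a lectin pathway protease, and F11, clotting factor XI, at 20.8 RPKM. Between groups the levels moved little: the highest group mean was 1.11 (Cfi, the regulator factor I) to 3.85 times (F11) the lowest, with a median of 1.42. The ratio was below 1.5 for 22 members, between 1.5 and 2 for 14, and above 2 for F11 and C4bp alone. The summed RPKM of the 38 members was 16570.0 ± 420.3 (SD, n = 3) in LF, 16121 ± 595 in LF+CR, 17147 ± 1139 in LF+Ex, 14789 ± 225 in HF, 17095 ± 374 in HF+CR and 13868 ± 984 in HF+Ex. Of the 38 members, 17 had their lowest group mean in HF+Ex and 13 in LF+CR, and 12 had their highest in LF+Ex and 11 in HF+CR.

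**Figure D1:**
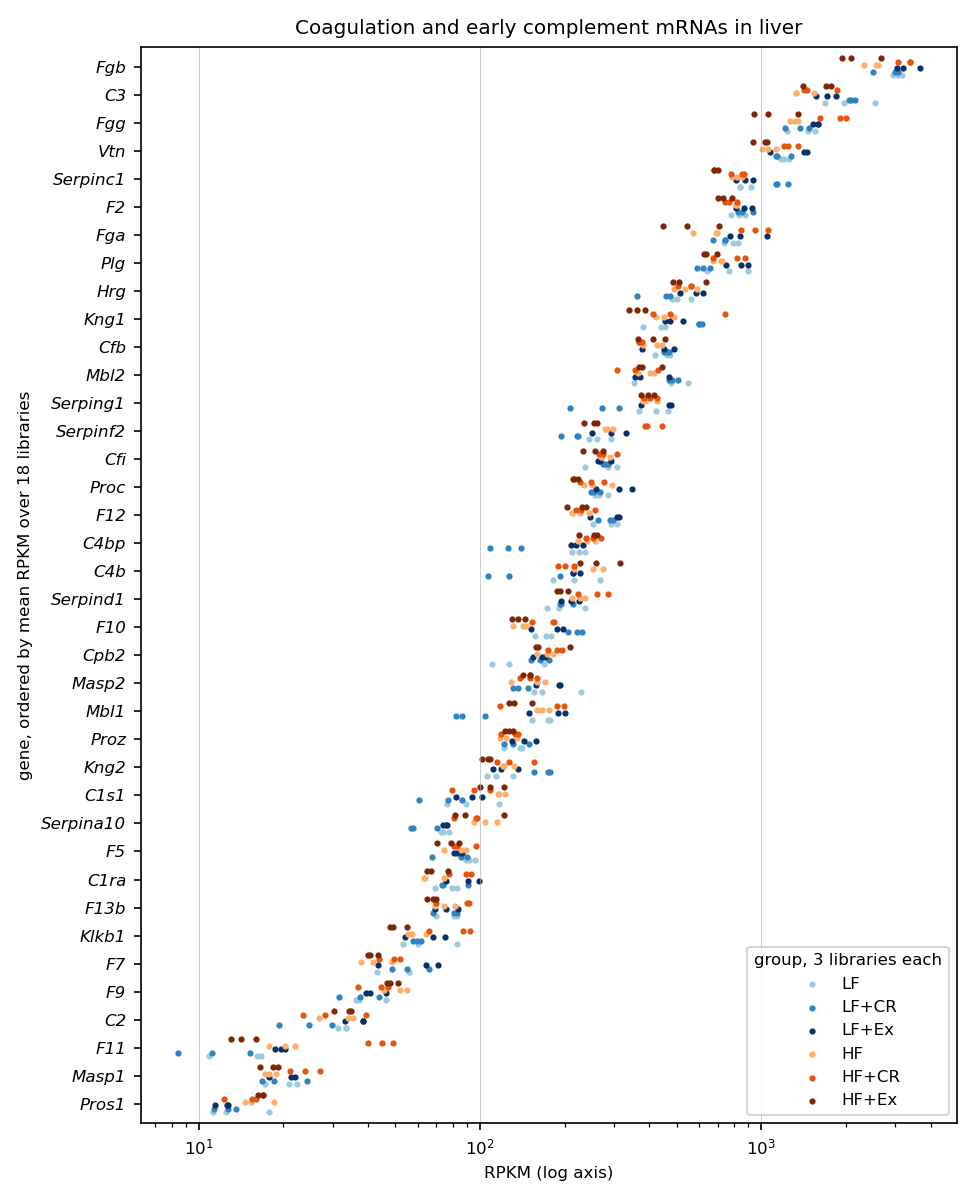
RPKM (log axis) of the 38 members in each of the 18 libraries, coloured by group (3 libraries each) and ordered by mean over 18 libraries. Fgb lies at the top with a mean of 2867 RPKM and Pros1 at the bottom with 14.3 RPKM, and for most genes the groups lie close together, with F11 in HF+CR and C4bp in LF+CR set apart.

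Fibrinogen is built from 3 chains, and their genes lie side by side on chromosome 3 in the order Fgg, Fga, Fgb, with 11096 and 8618 bases between them in the RefSeq annotation of GRCm38.p6. Fga was at 739.8, 829.7 and 791 RPKM in LF, 743, 673 and 741 in LF+CR and 774, 843 and 1049 in LF+Ex, and at 574, 697 and 689 in HF, 1058, 954 and 849 in HF+CR and 448, 705 and 546 in HF+Ex. The HF+Ex libraries lay below every LF+Ex library, and the HF+CR libraries above every library of HF, HF+Ex and LF+CR. Fgb was at 3154, 2948 and 3067 RPKM in LF, 3056, 2499 and 2989 in LF+CR and 3203, 3666 and 3044 in LF+Ex, and at 2556, 2593 and 2324 in HF, 3391, 3371 and 3053 in HF+CR and 1944, 2657 and 2091 in HF+Ex. Fgg was at 1236, 1463 and 1552 RPKM in LF, 1482, 1215 and 1370.2 in LF+CR and 1528, 1592 and 1593 in LF+Ex, and at 1267, 1315 and 1348 in HF, 1909.5, 2002 and 1622 in HF+CR and 945, 1356 and 1060.5 in HF+Ex. All 3 chains were lower in HF+Ex than in LF+Ex without overlap. Against LF+Ex the difference in HF+Ex on the log2(RPKM + 1) scale, ± SE, was -0.66 ± 0.16 (adjusted p = 0.0284) for Fga, -0.58 ± 0.13 (adjusted p = 0.0234) for Fgb and -0.50 ± 0.13 (adjusted p = 0.0432) for Fgg, with p-values from limma adjusted by Benjamini-Hochberg over all genes tested, as everywhere here. An adjusted p under 0.05 is written as called. In a bulk sample such as this, fewer cells of a type and less RNA per cell cannot be told apart. Under CR the sign was the opposite: HF+CR minus LF+CR was 0.44 ± 0.13 (adjusted p = 0.0499) for Fgg, which was called, and 0.40 ± 0.16 (adjusted p = 0.113) for Fga and 0.20 ± 0.13 (adjusted p = 0.320) for Fgb, which were not. The difference between these differences, (HF+CR minus LF+CR) minus (HF+Ex minus LF+Ex), was 1.06 ± 0.22 (adjusted p = 0.0168) for Fga, 0.78 ± 0.18 (adjusted p = 0.0284) for Fgb and 0.95 ± 0.19 (adjusted p = 0.0142) for Fgg, a comparison chosen after seeing the data. The HF+Ex calls were sensitive to single libraries. The Fga call was lost without LF+Ex 1, LF+Ex 2, LF+Ex 3, HF+Ex 1 or HF+Ex 3 (adjusted p 0.063 to 0.0946) and the Fgb call without LF+Ex 1, LF+Ex 2, HF+Ex 1 or HF+Ex 3 (0.0791 to 0.0956). The Fgg call was lost without any 1 of 11 libraries (0.0502 to 0.144), and that of Fgg in HF+CR against LF+CR without any 1 of 13 (0.0521 to 0.174). For the difference between differences, Fga was lost without HF+CR 1 (adjusted p = 0.053) and Fgb without any 1 of 7 libraries (0.0636 to 0.0911), while Fgg kept its call without each of the 18. The sum of the 3 chains was 5260.4 ± 141 RPKM in LF, 4923 ± 473 in LF+CR, 5764 ± 305 in LF+Ex, 4454 ± 132 in HF, 6069 ± 473 in HF+CR and 3918 ± 717 in HF+Ex. In HF 1, the HF library with Alb above 0, the sum was 4397 RPKM, between 4361 in HF 3 and 4606 in HF 2. The proportions of the chains varied: Fgb was 1.68 to 2.55 times Fgg and Fga, by its main transcript, 0.453 to 0.658 times Fgg over the 18 libraries. Fgb was 1.68 to 1.88 times Fgg in the HF+CR libraries and 1.91 to 2.55 times in the LF-diet libraries. It was 1.72 to 2.02 times Fgg in HF and 1.96 to 2.06 times in HF+Ex, so HF 3, at 1.72, lay within the HF+CR range. A further RefSeq transcript of Fga, 24.5% of the RPKM of both rows, was at 176 ± 27.6 RPKM in LF and 366 ± 25.5 RPKM in HF+CR. It was at 229 ± 24.3 RPKM in LF+CR, 255 ± 14.9 in LF+Ex, 230 ± 17.8 in HF and 223 ± 24.5 in HF+Ex. Its lowest group mean was in LF, where that of the main transcript was in HF+Ex.

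**Figure D2:**
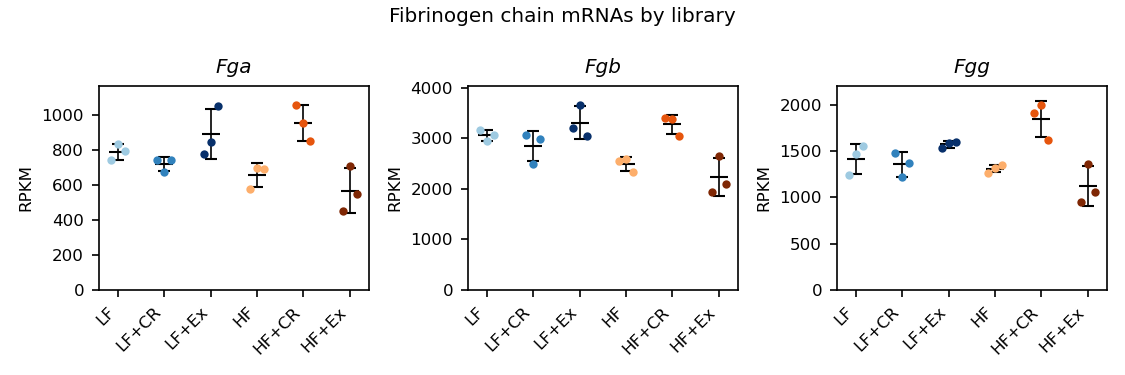
RPKM of the fibrinogen chain genes Fga, Fgb and Fgg in each library (points, 3 per group), with the group mean and SD (bars). In each panel the HF+Ex libraries lie below the LF+Ex libraries, and HF+CR is the group with the highest mean for Fga and Fgg (953 and 1844 RPKM).

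The promoters of the fibrinogen genes are shown because the chains fell together in HF+Ex against LF+Ex, beside those of F11 and Serpinf2, which rose together in HF+CR. Each is the 250 bases before the RefSeq transcript start on GRCm38.p6, read on the strand of the gene, at chr3:83025903-83026152 (plus strand) for Fga, chr3:83049864-83050113 (minus) for Fgb, chr3:83007474-83007723 (plus) for Fgg, chr8:45262032-45262281 (minus) for F11 and chr11:75439502-75439751 (minus) for Serpinf2. Capitals mark matches, on either strand, to the letters of 4 motifs of liver and acute-phase genes, spelled out after the sequences.
Fga: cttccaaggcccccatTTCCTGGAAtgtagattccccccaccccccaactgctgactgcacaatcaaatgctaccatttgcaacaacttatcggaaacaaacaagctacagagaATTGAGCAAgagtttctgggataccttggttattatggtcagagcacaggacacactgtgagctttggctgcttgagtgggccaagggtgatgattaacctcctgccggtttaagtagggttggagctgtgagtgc
Fgb: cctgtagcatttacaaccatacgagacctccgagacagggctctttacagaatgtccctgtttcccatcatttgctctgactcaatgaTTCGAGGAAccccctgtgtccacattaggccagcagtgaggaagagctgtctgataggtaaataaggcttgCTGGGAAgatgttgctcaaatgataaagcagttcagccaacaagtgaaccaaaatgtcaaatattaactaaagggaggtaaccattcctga
Fgg: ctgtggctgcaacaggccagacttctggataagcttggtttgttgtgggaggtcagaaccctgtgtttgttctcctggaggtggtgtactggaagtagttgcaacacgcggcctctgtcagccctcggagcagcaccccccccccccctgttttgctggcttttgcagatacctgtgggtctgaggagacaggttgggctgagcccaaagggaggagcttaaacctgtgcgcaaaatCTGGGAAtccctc
F11: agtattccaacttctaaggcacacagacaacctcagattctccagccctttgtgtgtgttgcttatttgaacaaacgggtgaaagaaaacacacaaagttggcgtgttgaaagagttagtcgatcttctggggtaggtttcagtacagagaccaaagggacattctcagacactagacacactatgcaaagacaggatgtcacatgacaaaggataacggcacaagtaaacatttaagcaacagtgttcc
Serpinf2: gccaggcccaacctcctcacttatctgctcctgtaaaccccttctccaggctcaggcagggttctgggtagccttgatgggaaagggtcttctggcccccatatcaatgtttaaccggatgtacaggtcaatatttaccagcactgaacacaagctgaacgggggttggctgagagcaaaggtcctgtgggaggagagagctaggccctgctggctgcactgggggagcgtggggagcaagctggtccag
The Fga stretch held a STAT match 234 to 226 bases before the start and a C/EBP match at 136 to 128. The Fgb stretch held a STAT match at 162 to 154 and an interleukin element at 91 to 85, and the Fgg stretch an interleukin element at 13 to 7. No matches overlapped in these stretches, and those of F11 and Serpinf2 held none of the letters searched. A promoter was found for 28 of the 38 members, and 32851 promoters of this length in the RefSeq table give the background. The C/EBP letters TTGCNNAAT were in 4 of the 28 and in 2.11% of all promoters. The interleukin element, the type II element of IL-6 response, with the letters CTGGGAA, was in 5 of the 28 and in 9.1% of all promoters. STAT letters, TTCNNNGAA, were in 5 of the 28 and in 7.02% of all. The TATA box, TATAAA, was in 2 of the 28 and in 12.4% of all. A match describes the letters and is not a binding site.

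F11 encodes factor XI, the precursor of a protease that activates factor IX. Its gene spans 45240659 to 45262055 on chromosome 8. The promoter stretch printed for F11, from 45262032, reaches into this span, so it lies before a transcript start inside the span. F11 was at 16.6, 10.9 and 16.2 RPKM in LF, 8.43, 11.2 and 15.2 in LF+CR and 18.7, 20.3 and 19.5 in LF+Ex, and at 21.9, 17.7 and 20.3 in HF, 48.9, 45 and 39.9 in HF+CR and 13, 16 and 14.1 in HF+Ex. The 3 HF+CR libraries, at 39.9 to 48.9 RPKM, lay above all 15 others, which ran from 8.43 to 21.9 RPKM. The HF+CR mean was 2.23 times that of HF, a difference of 1.12 ± 0.18 (adjusted p = 0.00948), and 3.85 times that of LF+CR, 1.89 ± 0.18 (adjusted p = 2.64e-05). On the LF diet LF+CR minus LF was -0.32 ± 0.18 (adjusted p = 0.317), not called, and the interaction of CR with diet was 1.44 ± 0.25 (adjusted p = 0.0105). Under Ex the HF difference was -0.42 ± 0.18 (adjusted p = 0.180), which missed the threshold, and its difference from that under CR was 2.31 ± 0.25 (adjusted p = 0.000184). The call of HF+CR against HF was lost without HF 2 (adjusted p = 0.0775). Without the pancreas libraries the interaction was 1.18 (adjusted p = 0.103). Klkb1, the gene of prekallikrein, lies 4632 bases from F11, and its values in HF+CR were 92.1, 86.7 and 65.9 RPKM against 57.1, 55.3 and 64.2 in HF, a difference of 0.45 ± 0.16 (adjusted p = 0.197) that was not called. The ratio of F11 to Klkb1 was 0.195 ± 0.062 in LF+CR and 0.552 ± 0.0473 in HF+CR.

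Factor XII and the kininogens form the contact system, which starts clotting on surfaces and releases bradykinin. Kng2 was at 106, 114 and 131 RPKM in LF, 174, 178 and 156 in LF+CR and 119, 136 and 111 in LF+Ex, and at 121, 132 and 121 in HF, 115, 127 and 155 in HF+CR and 108, 107 and 101 in HF+Ex. Kng2, 1 of the mouse kininogen genes, was higher in every LF+CR library than in every LF library, by 0.53 ± 0.12 (adjusted p = 0.0153), a call lost without LF 1, LF+CR 1 or LF+CR 2 (adjusted p 0.0592 to 0.0721). Kng1 was at 379.9, 442 and 454 RPKM in LF and 617, 600.1 and 599 in LF+CR, a difference of 0.51 ± 0.16 (adjusted p = 0.0753). In HF+CR it was at 411, 473 and 746 RPKM, with HF+CR 3 far above the rest, and at 474, 529 and 454 in LF+Ex, 489.5, 423 and 449.9 in HF and 385, 362 and 339.6 in HF+Ex. It was called over the 6 groups at once (0.0388, moderated F test) but in no comparison of 2 groups. Kng1 and Kng2 are close paralogs that may share reads, and Kng1 has further transcripts with 25.9% and 19.9% of its RPKM, so the split between them is uncertain. F12 was at 307, 292 and 252 RPKM in LF, 290.3, 263 and 298 in LF+CR and 312, 307 and 245 in LF+Ex, and at 243, 227 and 213 in HF, 219, 229 and 256 in HF+CR and 231, 237 and 204 in HF+Ex. F12, the zymogen factor XII, was lower on the HF diet when averaged over the 3 treatments, a difference of -0.31 ± 0.067 (adjusted p = 0.00448). The other members of this role were F5, the cofactor of factor X, with group means of 78.0 to 92.0 RPKM, F13b, the carrier subunit of the clot-crosslinking factor XIII, with 67.5 to 83.8 RPKM, Klkb1 with 50.7 to 81.6 RPKM and Hrg, histidine-rich glycoprotein, with 431 to 574 RPKM. None of these 4 was called in any comparison. Hrg had its lowest value, 362 RPKM, in LF+CR 1.

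The vitamin K-dependent proteins carry carboxylated glutamates that bind them to membranes, and include both clotting proteases and the anticoagulants protein C and protein S. F10 was at 171, 157 and 178 RPKM in LF, 229.8, 206 and 222 in LF+CR and 188, 198 and 152 in LF+Ex, and at 146, 142 and 131 in HF, 153, 183 and 182 in HF+CR and 144, 136 and 129.9 in HF+Ex. F10, the protease that makes thrombin, was lower on the HF diet averaged over treatments, a difference of -0.33 ± 0.064 (adjusted p = 0.00249), and higher with CR averaged over both diets, by 0.34 ± 0.078 (adjusted p = 0.0164). The latter call was lost without the bile duct libraries (0.29, adjusted p = 0.0541). F7 and Proz flank F10, with 1498 and 3907 bases between the genes. F7 was at 56, 42.9 and 55.9 RPKM in LF, 55.1, 48.6 and 65.9 in LF+CR and 64.2, 70.6 and 43.2 in LF+Ex, and at 48.5, 37.7 and 41.6 in HF, 49.3, 51.8 and 43.7 in HF+CR and 43.2, 39.8 and 40.7 in HF+Ex. F7, which starts clotting with tissue factor, was lower on the HF diet averaged over treatments, a difference of -0.32 ± 0.098 (adjusted p = 0.0268), a call lost without LF 1, LF+CR 3, LF+Ex 1, LF+Ex 2 or HF 2 (adjusted p 0.0514 to 0.0569). Proz, a cofactor for the inhibition of factor X, stayed between 118 and 158 RPKM in all 18 libraries and was not called (0.605 over the 6 groups). Proc was at 266, 256 and 285 RPKM in LF, 248, 255 and 268 in LF+CR and 311, 346 and 258 in LF+Ex, and at 295, 234 and 249 in HF, 249, 275 and 226 in HF+CR and 216, 224 and 213 in HF+Ex. Proc, the zymogen of anticoagulant protein C, was lower in HF+Ex than in LF+Ex without overlap, a difference of -0.47 ± 0.12 (adjusted p = 0.0329). This call was lost without LF+Ex 1, LF+Ex 2 or any HF+Ex library (0.0853 to 0.138).

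F9 and Pros1 were higher on the HF diet averaged over treatments, where F7 and F10 were lower. F9 was at 36.3, 37 and 46.2 RPKM in LF, 31.6, 43.8 and 37.5 in LF+CR and 39.4, 40.6 and 46.4 in LF+Ex, and at 45.5, 51.9 and 55.2 in HF, 47.1, 44.4 and 36.7 in HF+CR and 46.6, 51.2 and 48 in HF+Ex. F9, factor IX, was higher on the HF diet averaged over treatments by 0.25 ± 0.078 (adjusted p = 0.0331), a call lost without any 1 of 11 libraries (adjusted p 0.0524 to 0.0679). Pros1 was at 11.2, 17.7 and 12.5 RPKM in LF, 11.3, 13.5 and 12.7 in LF+CR and 11.4, 12.6 and 12.7 in LF+Ex, and at 14.6, 18.5 and 15.3 in HF, 15.4, 12.3 and 16 in HF+CR and 16.2, 16.9 and 16.9 in HF+Ex. Pros1 was higher by 0.28 ± 0.083 (adjusted p = 0.0243) in the same comparison, a call lost without LF+CR 1, LF+Ex 1 or HF 2 (0.0512 to 0.0521). Libraries of the LF and HF diets overlapped for both genes. F2, prothrombin, had group means from 739.8 RPKM in HF+Ex to 869.8 RPKM in LF+CR and was called in no comparison.

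Fibrinolysis is carried by plasmin and slowed by its inhibitors. Serpinf2 was at 260.1, 243 and 293 RPKM in LF, 222, 193 and 221 in LF+CR and 293, 331 and 249.8 in LF+Ex, and at 283, 279 and 296 in HF, 445, 387 and 392 in HF+CR and 234, 261 and 254 in HF+Ex. Serpinf2, the plasmin inhibitor antiplasmin (chromosome 11, 75431736 to 75439501), was in HF+CR above all 15 other libraries. It rose in HF+CR against HF by 0.51 ± 0.11 (adjusted p = 0.0368) and against LF+CR by 0.94 ± 0.11 (adjusted p = 0.000167), and the interaction of CR with diet was 0.83 ± 0.16 (adjusted p = 0.0182). The difference between the HF difference under CR and that under Ex was 1.15 ± 0.16 (adjusted p = 0.000744). The call against HF was lost without any 1 of 8 libraries (adjusted p 0.0513 to 0.159) and the interaction without LF+CR 2, HF 2 or HF+CR 1 (0.0515 to 0.0665), while the other 2 calls were kept without each of the 18. Plg, plasminogen, was at 769 ± 127 RPKM in LF, 623 ± 33 in LF+CR and 790.3 ± 106 in HF+CR. Cpb2, a carboxypeptidase that protects fibrin, was at 135 ± 30.3 RPKM in LF and 186 ± 10.3 in HF+CR. Neither Plg nor Cpb2 was called in any comparison.

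**Figure D3:**
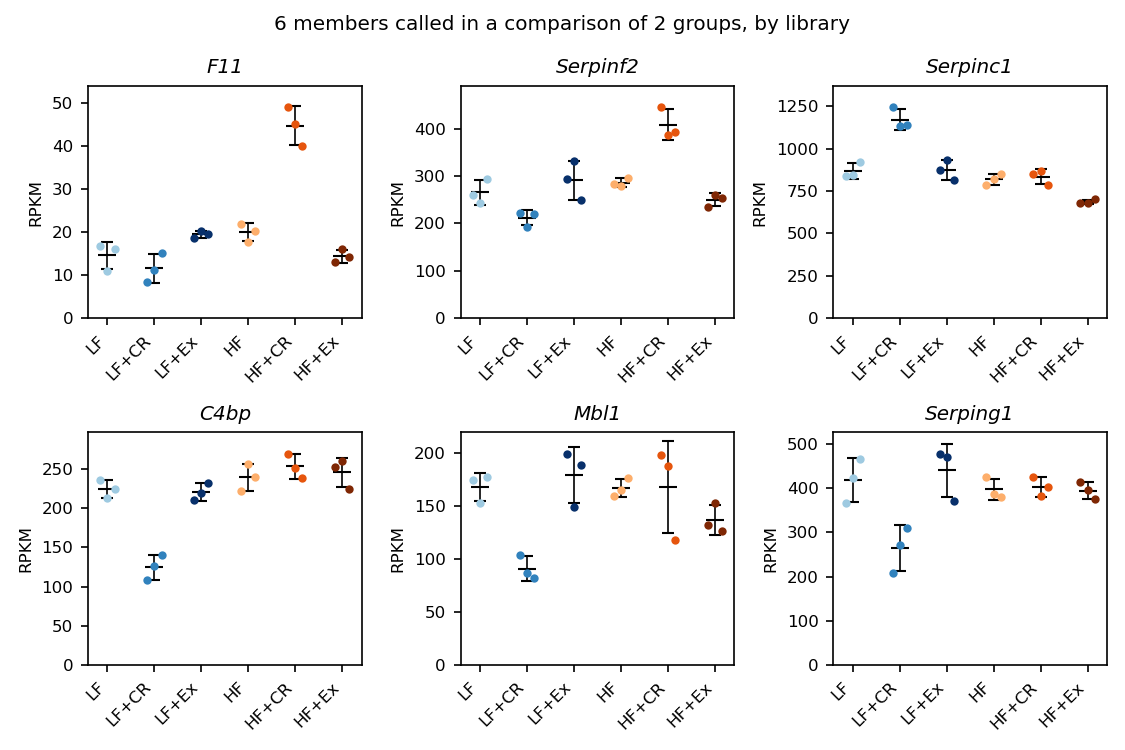
RPKM in each library (points, 3 per group) with the group mean and SD (bars) for F11, Serpinf2, Serpinc1, C4bp, Mbl1 and Serping1. F11 (39.9 to 48.9 RPKM) and Serpinf2 (387 to 445 RPKM) stand above all other libraries in HF+CR. In LF+CR, C4bp, Mbl1 and Serping1 lie below and Serpinc1 above every LF library.

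The serpins against clotting and complement proteases went different ways. Serpinc1 was at 840.1, 842 and 921 RPKM in LF, 1244, 1132 and 1137 in LF+CR and 875, 932 and 815 in LF+Ex, and at 786, 820.4 and 853 in HF, 851, 869 and 784 in HF+CR and 679, 679 and 701 in HF+Ex. Serpinc1, antithrombin (chromosome 1, 160978583 to 161002543), was in LF+CR above all 15 other libraries. It rose in LF+CR against LF by 0.43 ± 0.087 (adjusted p = 0.00949) and was lower in HF+CR than in LF+CR, a difference of -0.49 ± 0.087 (adjusted p = 0.00292), a pair of comparisons that share the LF+CR libraries. HF+Ex held the 3 lowest libraries, and the difference from LF+Ex was -0.35 ± 0.087 (adjusted p = 0.0356). Under quantile normalization that last difference shrank to -0.14 (adjusted p = 0.388), and the call was lost without LF+Ex 1, LF+Ex 2 or any HF+Ex library (0.0903 to 0.136). Serping1 was at 366, 423 and 466 RPKM in LF, 209, 273 and 311 in LF+CR and 479, 471 and 372 in LF+Ex, and at 426, 386 and 381 in HF, 426, 382 and 403 in HF+CR and 415, 395 and 375 in HF+Ex. Serping1, the C1 inhibitor, which blocks the C1 proteases and kallikrein (chromosome 2, 84765360 to 84775444), fell in LF+CR against LF by 0.67 ± 0.14 (adjusted p = 0.0115) and was higher in HF+CR than in LF+CR by 0.63 ± 0.14 (adjusted p = 0.0116). Without LF+CR 1 these were -0.51 (adjusted p = 0.0556) and 0.47 (adjusted p = 0.0584), and without HF+CR 1 the latter was 0.59 (adjusted p = 0.0559).

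Serpina10 inhibits factor X with protein Z as its cofactor. Serpina10 was at 73.6, 72.7 and 77.5 RPKM in LF, 56.6, 70.3 and 57.9 in LF+CR and 74.1, 75.8 and 76 in LF+Ex, and at 104, 115 and 95.2 in HF, 81.1, 97.4 and 96.7 in HF+CR and 88.6, 121 and 81.4 in HF+Ex. All 9 HF-diet libraries lay above all 9 LF-diet libraries, and the HF difference averaged over treatments was 0.46 ± 0.078 (adjusted p = 0.00134). HF+CR was above LF+CR by 0.57 ± 0.13 (adjusted p = 0.0151), a call lost without LF+CR 1 or HF+CR 2 (adjusted p 0.0599 to 0.071). Serpind1, heparin cofactor II, had group means of 195.6 to 256 RPKM, and Vtn had 1005 to 1318 RPKM. Neither was called in any comparison.

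Mannose-binding lectins recognise sugars on microbes and start the lectin pathway, and the mouse has the genes Mbl1 and Mbl2. Mbl1 was at 175, 153 and 177 RPKM in LF, 104, 86.4 and 82.3 in LF+CR and 199.8, 149 and 189 in LF+Ex, and at 159.8, 166 and 177 in HF, 198, 188 and 118 in HF+CR and 132, 153 and 126 in HF+Ex. Mbl1 (chromosome 14, 41151456 to 41163904) fell in LF+CR against LF by 0.88 ± 0.17 (adjusted p = 0.00753), with no LF+CR library above 104 RPKM and no LF library below 153 RPKM. HF+CR was above LF+CR by 0.85 ± 0.17 (adjusted p = 0.00646), although HF+CR 3, a bile duct library, lay at 118 RPKM. The HF difference under CR against that under Ex was 1.23 ± 0.24 (adjusted p = 0.0126). Mbl2 was at 353, 548 and 476 RPKM in LF and 479.7, 504 and 469 in LF+CR, a difference of 0.099 ± 0.16 (adjusted p = 0.762), and was called in no comparison. C4b was at 268, 182 and 215 RPKM in LF, 106, 127 and 192 in LF+CR and 215, 213 and 227 in LF+Ex, and at 253, 273 and 216 in HF, 216, 189 and 201 in HF+CR and 258, 316 and 226 in HF+Ex. C4b encodes complement C4, which both pathways cleave. It fell in LF+CR against LF by 0.67 ± 0.19 (adjusted p = 0.0485) with groups that overlapped, and the call was lost without any 1 of 16 libraries (adjusted p 0.0502 to 0.209). Its paralog C4a was at 0.12 to 25.9 RPKM, and reads may be split between them.

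C1ra and C1s1 encode the C1 proteases and lie 6903 bases apart. C1s1 was at 88.9, 76.5 and 117 RPKM in LF, 60.9, 76.6 and 86.4 in LF+CR and 82.1, 101 and 93.7 in LF+Ex, and at 117, 123 and 116 in HF, 108, 95.1 and 79.6 in HF+CR and 108, 122 and 99.7 in HF+Ex. C1s1 was higher on the HF diet averaged over treatments by 0.31 ± 0.093 (adjusted p = 0.0256), a call lost without LF+CR 1, LF+Ex 1, HF+CR 1 or HF+Ex 2 (adjusted p 0.0522 to 0.0558), and a further transcript held 31.5% of its RPKM. C4b was higher in that comparison by 0.33 ± 0.11 (adjusted p = 0.0408), lost without any 1 of 13 libraries (0.0505 to 0.0815). C1ra, with group means of 67.2 to 88.5 RPKM, was called in no comparison, nor were C2, the protease of the classical C3 convertase (24.6 to 36.6 RPKM), Masp1 (17.9 to 23.9 RPKM) and Masp2, which cleaves C4 and C2 (138 to 183 RPKM).

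At the level of C3 the alternative pathway adds factor B, and regulators take the convertase apart. C4bp was at 236, 213 and 225 RPKM in LF, 108, 126 and 140.1 in LF+CR and 211, 219.9 and 233 in LF+Ex, and at 223, 257 and 239.9 in HF, 270.0, 252 and 239 in HF+CR and 253, 260.3 and 225 in HF+Ex. C4bp, a cofactor for the breakdown of C4b (chromosome 1, 130635921 to 130661657), was in LF+CR below all 15 other libraries, which ran from 211 to 270.0 RPKM. It fell in LF+CR against LF by 0.85 ± 0.10 (adjusted p = 0.000459) and was higher in HF+CR than in LF+CR by 1.02 ± 0.10 (adjusted p = 5.88e-05). The interaction of CR with diet was 0.93 ± 0.15 (adjusted p = 0.00559), and 0.79 (adjusted p = 0.0577) without the pancreas libraries. Each of these calls was kept when any 1 library was left out. C3 was at 1971, 2533 and 1679 RPKM in LF, 2157, 2048 and 2083 in LF+CR and 1848, 1718 and 1561 in LF+Ex, and at 1325, 1535 and 1330.2 in HF, 1419, 1453 and 1859.6 in HF+CR and 1774, 1706 and 1412 in HF+Ex. C3 was lower on the HF diet averaged over treatments, a difference of -0.35 ± 0.087 (adjusted p = 0.0110), and its difference in HF against LF, -0.54 ± 0.15 (adjusted p = 0.0986), was not called. LF libraries of C3 spanned 1679 to 2533 RPKM. Cfb, factor B, lies 87 bases from C2 and had group means of 369 to 461 RPKM. Cfi had 254 to 282 RPKM and the highest p over the 6 groups of all members (adjusted p = 0.784). Neither was called in any comparison.

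**Figure D4:**
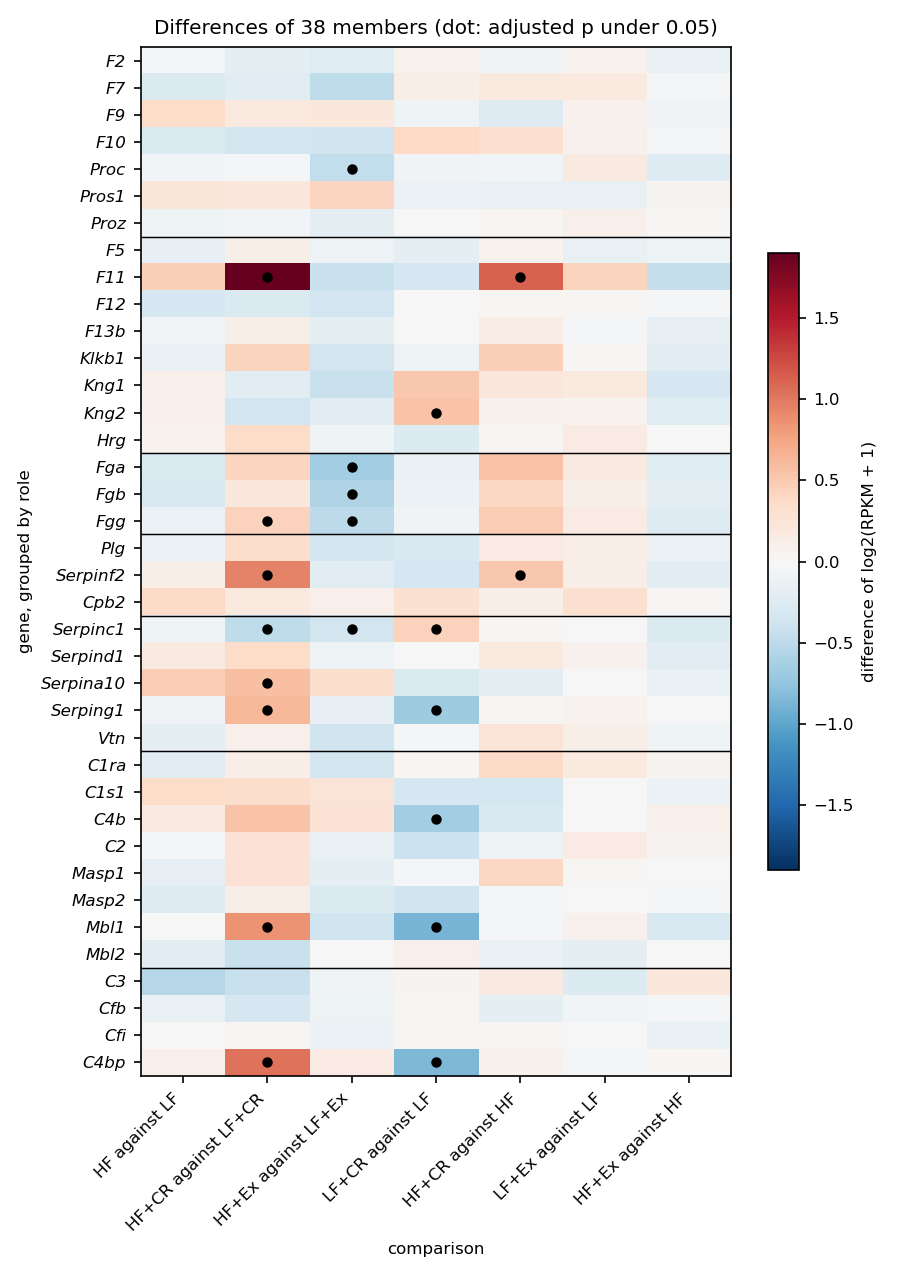
Difference of log2(RPKM + 1) for each member (rows, grouped by role) in 7 comparisons of 2 groups (columns), with red for higher and blue for lower in the group named first. Dots mark an adjusted p under 0.05; the deepest red is F11 in HF+CR against LF+CR (1.89).

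Counted over the whole list, 21 of the 38 members were called in at least 1 of 14 comparisons and 17 in none. These comparisons share libraries, and 1 of them was added after the data were seen. The share of all genes called in at least 1 of them is not given here, so this count has no background to be set against. Over the 6 groups at once, 16 of 38 were called by the moderated F test, or 42.1% of the members against 21.8% of all genes tested. Among the 5706 genes with a mean of at least 5 RPKM, a level that all members exceeded, the share was 27.8%. Without the pancreas libraries 6 were called, where 4.93% of all genes were, and without LF+CR 1 alone 10, where 12.6% were.

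On the LF diet, CR was set against no treatment. Antithrombin (Serpinc1) and a kininogen (Kng2) rose, and C4bp, Mbl1, Serping1 and C4b fell. These were 6 of 38 members (15.8%), 2 higher and 4 lower, where 6.5% of all genes were called, 3.01% higher and 3.49% lower. The median difference of the members was -0.06 and that of all genes 0.00, and the 8 members of the classical and lectin pathways had a median of -0.35. Fibrinogen was not among the calls, with differences of -0.13 for Fga, -0.11 for Fgb and -0.06 for Fgg. Without LF+CR 1 the count was 3, without all pancreas libraries 2 (C4bp and Mbl1), and 2 when the compared groups were fitted alone, where 2.41%, 2.08% and 1.93% of all genes were called. For 11 members the lowest value of all 18 libraries was in LF+CR 1. Macrophage markers summed to 133 to 189 RPKM in LF+CR and 163 to 340.0 RPKM in LF, with 0 of 9 tested markers higher and none called, and pancreatic markers to 5.01 to 1834 RPKM in LF+CR and 5.32 to 9.26 in LF. Of 10 hepatocyte markers 3 were called as higher (Tat, Cps1 and Ttr) and none as lower, with a median difference of 0.42. The part of these markers in the result was not tested.

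On the HF diet the same question was asked of HF+CR and HF. F11 and Serpinf2 rose, and no member fell. These were 2 of 38 members (5.26%), where 1.4% of all genes were called, 0.628% higher and 0.772% lower. The fibrinogen differences missed the threshold, at 0.54 ± 0.16 (adjusted p = 0.113) for Fga, 0.39 ± 0.13 (adjusted p = 0.152) for Fgb and 0.49 ± 0.13 (adjusted p = 0.101) for Fgg. Groups did not overlap for 10 members that were higher and 3 that were lower, against 10.6% and 8.28% of all genes, 18.9% in both directions. The count was 1 under median-of-ratios scaling, without the pancreas libraries and with the compared groups alone, and 0 without HF 2. It was 1 without LF+Ex 1, HF 1, HF 3, HF+CR 1, HF+CR 2, HF+Ex 2 or HF+Ex 3. In the runs with a count of 1, 0.251% to 1.43% of all genes were called, and without HF 2 0.116%. Of 10 hepatocyte markers 2 were higher (Cps1 and Tat) and none lower. Macrophage markers summed to 218 to 303 RPKM in HF+CR and 243 to 538 RPKM in HF, with none called. Pancreatic markers summed to 8.2 to 319.6 RPKM in HF+CR and 9.28 to 12.7 RPKM in HF. The part of these markers in the result was not tested. The interaction of CR with diet was called for F11, Serpinf2 and C4bp, 3 of 38 against 1.02% of all genes (0.579% with a positive and 0.444% with a negative sign), and was positive for 27 of 38. It was called for none without the pancreas libraries, where 0.357% of all genes were called and the values were 1.18 for F11, 0.80 for Serpinf2 and 0.79 for C4bp.

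HF+CR was compared with LF+CR to ask how the diets differed under CR. F11, Serpinf2, C4bp, Mbl1, Serping1, Serpina10 and Fgg were higher and Serpinc1 was lower. These 8 of 38 members (21.1%), 7 higher and 1 lower, stood against 9.77% of all genes called, 4.7% higher and 5.07% lower. The median of the members was 0.18 and that of all genes -0.00. The comparison shares its LF+CR libraries with LF+CR against LF, and its HF+CR libraries with HF+CR against HF. Without HF+CR 3 the count was 15, without LF+CR 1 it was 5, without the pancreas libraries 3 (C4bp, F11 and Serpinf2) and with the compared groups alone 3. The shares of all genes called there were 11.9%, 4.65%, 1.26% and 3.67%. Macrophage markers summed to 218 to 303 RPKM in HF+CR and 133 to 189 RPKM in LF+CR, with 0 of 9 tested markers called. Of 10 hepatocyte markers 5 were lower (Tat, Pck1, Hnf4a, Cps1 and Trf) and 1 higher (Apoa1), and of 4 tested lymphocyte markers 1 was higher (Cd79b). The part of these cell types in the result was not tested.

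HF+Ex was compared with LF+Ex to ask the same under Ex. The 3 fibrinogen chains, antithrombin and protein C were lower, and none was higher. These 5 of 38 members (13.2%) stood against 5.15% of all genes called, but lower calls were 1.01% and higher calls 4.13%. Groups did not overlap for 15 members that were lower and 3 that were higher, against 6.67% and 24.2% of all genes, and 31 of 38 differences were negative. The median of the members was -0.19 and that of all genes 0.08. With median-of-ratios scaling 8 members were called and 32 differences were negative, and with quantile normalization 2 and 26. The shares of all genes called under these scalings were 7.3% and 6.95%. The count was 0 without the pancreas libraries and without LF+Ex 1, LF+Ex 2, HF+Ex 1 or HF+Ex 3 alone, 3 without HF+Ex 2, and 1 with the compared groups alone. Of all genes, 8.42% were called with the compared groups alone, more than the 5.15% with all libraries. The share was 0.56%, 0.792%, 1.01% and 0.57% without LF+Ex 1, LF+Ex 2, HF+Ex 1 and HF+Ex 3, and 0.985% without HF+Ex 2. Without the pancreas libraries 0.319% of all genes were called, and the differences were -0.75 for Fga, -0.60 for Fgb, -0.52 for Fgg and -0.45 for Proc. Alb was at 30803 to 33218 RPKM in HF+Ex and listed at 0 in LF+Ex, and such a 0 can be a failed estimate. Of the other hepatocyte markers 4 were lower (Tat, Cps1, Hnf4a and Pck1). Macrophage markers summed to 359 to 402 RPKM in HF+Ex and 185 to 253 RPKM in LF+Ex, with 1 of 9 tested markers called, Cd5l. Also called as higher were 1 of 9 tested stellate cell markers (Lrat), 1 of 4 lymphocyte markers (Nkg7) and 1 of 2 platelet markers (Pf4). The part of these markers in the result was not tested.

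Ex without a change of diet moved no member past the threshold. LF+Ex against LF gave 0 of 38 and 0% of all genes by limma, with 1 member (F11, higher) and 9.11% of all genes at an unadjusted p under 0.05. HF+Ex against HF gave 0 of 38 and 0% of all genes, with 2 members and 3.64% of all genes unadjusted. In HF+Ex against HF the groups did not overlap for 10 members that were lower and 0 that were higher, against 8.06% and 2.96% of all genes. The median of the members in LF+Ex against LF was 0.07 where that of all genes was -0.13. Median-of-ratios scaling moved these to 0.24 and 0.00, with 36 of 38 positive in place of 27. In HF+Ex against HF the members' median of -0.09 became 0.01 under quantile normalization. The interaction of Ex with diet called 0 of 38 and 0% of all genes, with 5 members and 5.07% unadjusted, and Ex averaged over both diets called 0 of 38 and 0%, with 0 members and 7.04% unadjusted.

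HF against LF, the diets alone, called 0 of 38 members by limma where 0.405% of all genes were called, 0.261% higher and 0.145% lower. Groups did not overlap for 6 members that were lower and 2 that were higher, against 10.9% and 7.96% of all genes, 18.8% in both directions. At an unadjusted p under 0.05 there were 9 members, 5 higher (F9, F11, Cpb2, Serpina10 and C1s1) and 4 lower (F10, F12, Fgb and C3), against 16.8% of all genes. Under median-of-ratios scaling 1 member was called, where 1.96% of all genes were. Averaged over the 3 treatments, the HF diet called 14 of 38, where 23.7% of all genes were called. Serpina10, F11, C4bp, C4b, C1s1, Pros1, Serpinf2 and F9 were higher, 8 of 38 against 14% of all genes. C3, F10, F7, F12, Serpinc1 and Fgb were lower, 6 of 38 against 9.67%. The 14 were 36.8% of the members. The C4bp difference here was 0.42 ± 0.060 (adjusted p = 0.000543) and that of F11 0.64 ± 0.10 (adjusted p = 0.00110). For F11 the average joins the difference of 1.89 under CR with one of -0.42 under Ex. For C4bp it joins a difference of 1.02 under CR with smaller ones. The C4bp means were 240 RPKM in HF and 225 in LF, and 246 in HF+Ex and 221 in LF+Ex. In the same comparison Serpinf2 was higher by 0.28 ± 0.065 (adjusted p = 0.00726), while Serpinc1 differed by -0.31 ± 0.050 (adjusted p = 0.00117) and Fgb by -0.22 ± 0.072 (adjusted p = 0.0374), the last lost without any 1 of 12 libraries (adjusted p 0.0501 to 0.0765). The Serpinf2 average joins a difference of 0.94 under CR with a lower mean under Ex, 250 RPKM in HF+Ex and 291 in LF+Ex. Macrophage markers summed to 133 to 340.0 RPKM in the LF-diet libraries and 218 to 538 in the HF-diet libraries, with 6 of 9 tested markers called as higher. Of 9 tested stellate cell markers 4 were higher and of 4 tested lymphocyte markers all 4. Of 2 tested platelet markers 1 was higher (Pf4), and of 10 endothelial markers 1 was higher (Lyve1) and 1 lower (Clec4g). Of 10 hepatocyte markers 5 were lower, and Alb was higher, with its listed zeros. The part of these cell types in the result was not tested. Without the pancreas libraries 7 were called, where 11.3% of all genes were, and 8 or 9 without LF+Ex 1, LF+CR 1 or HF 2. Without these, 17.8%, 18.2% and 19.5% of all genes were called. CR averaged over both diets called 6 of 38, F10, Kng2 and Serpinc1 higher and C4bp, Mbl1 and C4b lower, where 7.18% of all genes were called, 3.15% higher and 4.04% lower. On the HF diet alone the mean of C4bp was 239.9 RPKM in HF and 254 in HF+CR, and that of Mbl1 167 in HF and 168 in HF+CR. The differences were 0.31 ± 0.083 (adjusted p = 0.0377) for Kng2, 0.23 ± 0.061 (adjusted p = 0.0355) for Serpinc1, -0.39 ± 0.074 (adjusted p = 0.00646) for C4bp, -0.46 ± 0.12 (adjusted p = 0.0341) for Mbl1 and -0.48 ± 0.13 (adjusted p = 0.0437) for C4b. Leaving out 1 library lost the call of C4b 12 times, of Kng2 10 times, of Serpinc1 9 times and of Mbl1 6 times (adjusted p up to 0.115), and those of C4bp and F10 0 times. The count for CR averaged over both diets was 3 under median-of-ratios scaling, without the pancreas libraries or without HF+CR 2. There 9.65%, 3.49% and 4.44% of all genes were called. It was 2 without LF 1, LF+CR 2, HF 1 or HF 2, where the shares were 4.13%, 4.7%, 4.86% and 4.71%.

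The HF difference was set against itself under CR and under Ex, a comparison added after seeing the data. It was more positive under CR for all 3 fibrinogen chains, F11, Serpinf2, Mbl1 and C4bp, 7 of 38 members (18.4%) where 2.39% of all genes were called, 1.34% with a positive sign. No member was called in the other direction, and 31 of 38 differences were positive, with a median of 0.28 against -0.10 for all genes. Under median-of-ratios scaling 32 were positive and 8 called, and under quantile normalization 31 and 6. The shares of all genes called there were 2.64% and 2.41%. F11 and Serpinf2 were called without the pancreas libraries, where 0.618% of all genes were. Without HF+CR 1 the count was 5, where 1.26% were.

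**Figure D5:**
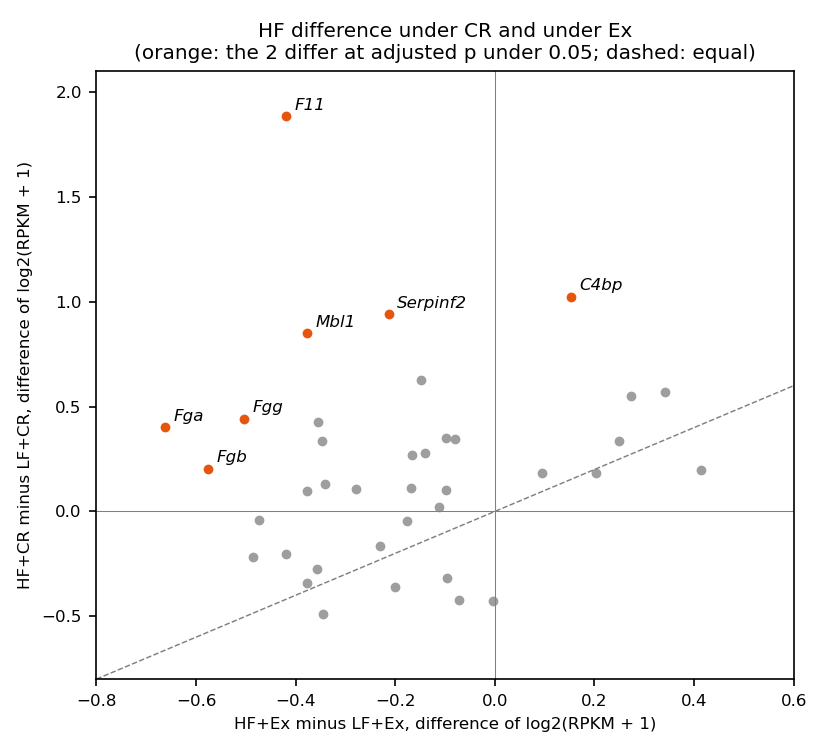
Difference of log2(RPKM + 1) between the diets under Ex (horizontal axis, HF+Ex minus LF+Ex) and under CR (vertical axis, HF+CR minus LF+CR), 1 point per member. The 7 orange members are those whose differences differed at an adjusted p under 0.05, and they lie above the dashed line of equality, with F11 at -0.42 and 1.89.

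Genes of the same pathways outside the list were counted in the same way. Of 27 tested genes among 36 other complement genes, 7 fell in LF+CR against LF, where 3.49% of all genes fell. The difference was -3.88 ± 0.30 (adjusted p = 7.63e-06) for C8a, -2.26 ± 0.36 (adjusted p = 0.00258) for C6 and -1.49 ± 0.27 (adjusted p = 0.00494) for C9. It was -1.71 ± 0.36 (adjusted p = 0.0114) for C8b and -0.68 ± 0.13 (adjusted p = 0.00606) for Clu. The products of C6, C8a, C8b and C9 build the membrane attack complex, and that of Clu, clusterin, holds it in check. None of the 27 rose there, where 3.01% of all genes rose. In HF+CR against LF+CR, 6 of these 27 were higher, among them C8a by 4.56 ± 0.30 (adjusted p = 7.66e-07), C6 by 3.50 ± 0.36 (adjusted p = 6.86e-05) and C9 by 2.24 ± 0.27 (adjusted p = 0.000187), and none lower. Among all genes 4.7% were higher and 5.07% lower there. The HF difference under CR against under Ex was called for C8a, C6, C8b and C9, 4 of the 27, all with a positive sign, against 1.34% of all genes. The HF diet averaged over treatments was called for 13 higher and 1 lower, against 14% and 9.67% of all genes. C1qa, C1qb and C1qc, 3 of these complement genes, are also among the macrophage markers called there. Of 27 tested among 35 other coagulation and fibrinolysis genes, 3 fell in LF+CR against LF, the thrombin receptor F2r and the protease inhibitors Mug1 and Pzp. In HF+CR against LF+CR 7 were higher. The shares of all genes were 3.49% and 4.7%. In HF+Ex against LF+Ex, 2 of these 27 were higher and 2 lower, against 4.13% and 1.01% of all genes. Among 29 transcription factors and signalling genes of plasma protein transcription, Hnf4a, a master regulator of hepatocyte genes, was lower in HF+CR against LF+CR, a difference of -0.52 ± 0.12 (adjusted p = 0.0149), and in HF+Ex against LF+Ex, -0.53 ± 0.12 (adjusted p = 0.0257). Of 28 other secreted plasma proteins, the acute-phase genes Saa4, Saa1 and Saa2 fell and Ttr, the thyroxine carrier transthyretin, rose in LF+CR against LF, with differences of -1.20 ± 0.17 (adjusted p = 0.00113), -3.05 ± 0.60 (adjusted p = 0.00803), -2.95 ± 0.76 (adjusted p = 0.0318) and 0.48 ± 0.13 (adjusted p = 0.0374). In HF+CR against LF+CR 4 of the 28 were higher and 1 lower, against 4.7% and 5.07% of all genes. In HF+Ex against LF+Ex 5 were higher and none lower, against 4.13% and 1.01%. The 5 include Alb, whose call rests on its listed zeros.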

How the data were processed

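Liver polyA RNA was sequenced in 18 libraries, 3 in each of 6 groups. The authors deposited RPKM values per RefSeq transcript; the submitters' processing notes name TopHat 1.4.1, Cufflinks 1.3.0 and mm10. The annotation version and read totals are not given in the sources used here, so depth is an estimate from the steps between low values. Read counts were not used here, so no count test was run. Of 30582 rows, 29438 were named from the RefSeq table and 179 from GENCODE, and 965 stayed unnamed. Each gene took its row with the highest mean. Genes reaching 1 RPKM in 3 or more libraries, 10358 in all, were fitted on log2(RPKM + 1) with limma 3.58.1 (R 4.3.3), with 6 group means, 12 residual degrees of freedom, an intensity trend and two-sided tests. Adjustment was by Benjamini-Hochberg over all genes kept, in each of 14 comparisons, 1 of them added after the data were seen. The code was tested on simulated data. Values in every library are given for each member called in at least 1 comparison; of the pathway lists, at most the 6 called genes with the smallest adjusted p in a comparison are named. The members and lists were chosen with earlier results of these data known. Alternatives changed the pseudocount, filter, scaling, trend, transcript rows, replicate block and libraries. Motifs were matched as letters in RefSeq promoters of GRCm38.p6. Replicate numbers were not used to pair libraries. Some genes of the pathway lists are not reported here.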

Additional observations from a re-analysis of the deposited data

Results flagged for a closer look

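For 3 members the response to CR differed between the diets with all 18 libraries, by a test of the difference itself, in limma with Benjamini-Hochberg adjustment over all genes, and none of these calls held without the pancreas libraries. The interaction of CR with diet, on the log2(RPKM + 1) scale, was 1.44 for F11 (factor XI), 0.83 for Serpinf2 (antiplasmin) and 0.93 for C4bp (C4b-binding protein). Without the pancreas libraries it was 1.18 (adjusted p = 0.103), 0.80 (adjusted p = 0.147) and 0.79 (adjusted p = 0.0577), in the same order. For C4bp the LF+CR libraries were low, and for F11 and Serpinf2 the HF+CR libraries were high.

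For 7 members the difference between the diets under CR differed from that under Ex with all 18 libraries, in a comparison added after the data were seen. The difference between these differences was 2.31 for F11, 1.06 for Fga, 0.78 for Fgb, 0.95 for Fgg, 1.15 for Serpinf2, 1.23 for Mbl1 and 0.87 for C4bp. The calls of F11 (adjusted p = 0.00389) and Serpinf2 (adjusted p = 0.0213) were kept without the pancreas libraries, and those of the other 5 were lost, with adjusted p of 0.0636 for C4bp to 0.204 for Fgb. The fibrinogen chains and F11 had HF+Ex means below those of LF+Ex and HF+CR means above those of LF+CR. Groups of 3 libraries were too small for a search for outlying libraries.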

How the results depend on the processing

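Of 51 calls of single members, all 51 held with a pseudocount of 0.1, with a mean of at least 5 RPKM and with RefSeq rows summed, and none changed sign in any alternative run. The call was lost for 1 without the intensity trend, 7 without a filter, 9 with median-of-ratios scaling, 7 with quantile normalization, 4 without the bile duct libraries, 33 without the pancreas libraries and 15 of 21 with the compared groups alone, an alternative with fewer libraries. The number of members called moved as follows. Median-of-ratios scaling gave 1 for HF against LF, 1 for HF+CR against HF, 8 for HF+Ex against LF+Ex and 3 for CR averaged over both diets. The shares of all genes called there were 1.96%, 1.43%, 7.3% and 9.65%. Quantile normalization gave 2 for HF+Ex against LF+Ex, where 6.95% of all genes were called. Without the pancreas libraries the counts were 2 for LF+CR against LF, 1 for HF+CR against HF, 3 for HF+CR against LF+CR, 0 for HF+Ex against LF+Ex, 0 for the CR by diet interaction, 3 for CR averaged over both diets, 7 for HF averaged over the 3 treatments, 2 for the HF difference under CR against under Ex and 6 for any difference among the 6 groups. In the same order, 2.08%, 0.27%, 1.26%, 0.319%, 0.357%, 3.49%, 11.3%, 0.618% and 4.93% of all genes were called. Without the bile duct libraries the counts were 15 for HF+CR against LF+CR, 9 for HF+Ex against LF+Ex and 5 for the CR by diet interaction. There 13.4%, 10.8% and 2.61% of all genes were called. With the compared groups alone the counts were 2 for LF+CR against LF, 1 for HF+CR against HF, 3 for HF+CR against LF+CR and 1 for HF+Ex against LF+Ex. Here the shares of all genes were 1.93%, 0.261%, 3.67% and 8.42%. The cause of these shifts was not tested.

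Leaving out 1 library at a time gave 3 to 7 calls for LF+CR against LF, 0 to 3 for HF+CR against HF, 5 to 15 for HF+CR against LF+CR, 0 to 7 for HF+Ex against LF+Ex, 2 to 4 for the CR by diet interaction, 2 to 7 for CR averaged over both diets, 8 to 18 for HF averaged over the 3 treatments, 5 to 10 for the HF difference under CR against under Ex and 10 to 20 for any difference among the 6 groups. The share of all genes called moved in these runs too. In the same order it was 2.41% to 8.3%, 0.116% to 2.86%, 4.15% to 11.9%, 0.56% to 8.16% and 0.434% to 2.04%. For the last of these comparisons it was 4.13% to 10.2%, 17.8% to 26%, 1.26% to 5.47% and 12.6% to 26%. Leaving out 1 library gave 0 for HF against LF, LF+Ex against LF, HF+Ex against HF, the Ex by diet interaction and Ex averaged over both diets. Same-numbered libraries deviated together with r over 0.1 in 6 of 21 pairs (-0.243 to 0.313). Every library lay closest to its own number in HF+Ex against HF, 6 of 6. In HF against LF and in HF+CR against LF+CR 4 of 6 did, and in the other comparisons of 2 groups 0 of 6. With 3 libraries a group these values cannot settle whether the numbers pair libraries. With the replicate block 8 of 51 calls were lost, and the count was 1 for HF+CR against HF and 3 for HF+Ex against LF+Ex. There 0.975% and 4.39% of all genes were called. The precision is limited by 3 libraries a group: a difference between 2 groups had an SE of 0.087 for Serpinc1 and 0.18 for F11 on the log2 scale.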
